A study of Mus musculus with 6 samples.

Results

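Splicing factor genes were described in endothelial cells of the embryonic mouse heart that had lost both copies, 1 copy or no copy of Dll4. The genes were chosen by name, as protein-coding symbols that start with Srsf and a digit, Hnrnp, Sf3a or Sf3b, Snrp, Prpf, Lsm and a digit, or U2af. The rule took 80 of the 41214 genes in the table and used no measured value. They comprised 11 Srsf, 20 Hnrnp, 9 Sf3a and Sf3b, 11 Snrp, 13 Prpf, 13 Lsm and 3 U2af genes. Genes whose symbols start with Snrnp fall outside the rule and were described with the other splicing genes. Snrpn was not analysed here.

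Splicing removes introns from pre-mRNA. U1 snRNP binds the 5′ splice site, U2AF binds the polypyrimidine tract and the 3′ splice site, and the SF3a and SF3b complexes help U2 snRNP to settle on the branch point before the U4/U6.U5 tri-snRNP joins and the spliceosome is activated. A ring of Sm proteins forms on most spliceosomal RNAs and a ring of Lsm proteins on U6. SR proteins mostly promote the use of nearby splice sites, while hnRNPs coat nascent RNA and often oppose them, and nearly all of these factors are made in every cell type.

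All animals carried Pdgfb-iCreERT2-IRES-EGFP, a transgene in which Pdgfb sequences drive a tamoxifen-inducible Cre recombinase and a green fluorescent protein in endothelial cells. KO embryos (genotype Dll4-/-) had a Dll4 flox/flox parent with the transgene and a Dll4 flox/flox mother. Het embryos (Dll4+/-) had the same kind of parent and a wildtype mother, and wt embryos a parent with the transgene alone and a wildtype mother. Tamoxifen was injected at E13.5, hearts of several litters were collected at E14.5, and CD31+GFP+ cells were taken by flow cytometry. Dll4 encodes a Notch ligand of arterial endothelium. Each group has 2 RNA-seq libraries, KO replicates 1 and 2, het replicates 2 and 3, and wt replicates 4 and 5. The labels do not say which embryos or sorts a library pools, so a p-value measures the spread between these libraries only.

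Dll4 was at 19.3 and 13.7 CPM (read counts scaled to the library's total) in KO, at 81.2 and 85.9 CPM in het and at 196 and 183 CPM in wt, which follows the labels. The log2 fold change was -3.50 ± 0.16 in KO against wt (adjusted p = 2.01e-12) and -1.18 ± 0.15 in het against wt (adjusted p = 0.000735, or 0.0859 without wt replicate 4). Total counts were 6501789 and 4987999 in KO, 1537894 and 3165535 in het, and 2521532 and 1732132 in wt. Counts assigned to Lars2 made up 0.0572% and 0.0611% of the KO libraries, against 17.1% and 16.4% in het and 16.3% and 16.7% in wt. This difference in makeup and the Dll4 genotype cannot be told apart, since no KO library resembles the others. The 10 endothelial markers summed to 5672 and 5590 CPM in KO, 6082 and 6532 CPM in het, and 6790 and 6561 CPM in wt. Its members went both ways in KO against wt: 2 were higher (Kdr and Tek) and 3 were lower (Cdh5, Emcn and Erg), with a median log2 fold change of 0.02. Cdh5 alone, which encodes VE-cadherin, had 421 and 381 CPM in KO, 1808 and 1910 CPM in het, and 1981 and 1928 CPM in wt. The 10 cardiomyocyte markers summed to 55.5 and 52.8 CPM in KO, 221 and 181 CPM in het, and 116 and 113 CPM in wt, and of the 8 tested, 4 were lower in KO than in wt and 8 lower in KO than in het. The 9 mural and fibroblast markers summed to between 118 and 370 CPM, highest in het. Of the 7 tested, 3 were lower in KO than in het. Against wt they went both ways: 1 was higher in KO (Pdgfrb) and 2 were lower (Acta2 and Dcn). The 5 macrophage markers summed to between 7.13 and 151 CPM, highest in het replicate 2, with 1 of the 4 tested lower in KO than in het and in wt. The 6 erythroid markers summed to between 118 and 414 CPM. The part of these differences in the results below was not tested. Fewer cells of a type and less RNA per cell cannot be told apart in sorted bulk samples.

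In KO against wt, splicing factor genes moved in both directions, and within most families some members were higher while others were lower. Of the 79 genes tested, 17 were higher in KO than in wt and 14 were lower, at an adjusted p under 0.05 in edgeR's quasi-likelihood test over all 10952 genes tested. The share called was 39.2%, against 32% of all genes tested. The share higher was 21.5%, against 14.7% of all genes, and the share lower was 17.7%, against 17.3%. Among the 1794 tested genes whose average level was at least the median level of the splicing factor genes, 25.8% were higher and 26.6% were lower. The shares of the splicing factor genes include those below that level, so these sets are not matched. The calls were thus about as frequent among the splicing factor genes as in the table at large, and this count is no result about them as a group. Counts by family and list below stand beside these same shares, and no family or list was tested as a group. The median log2 fold change was 0.07 over the 79 genes and -0.02 over all genes tested.

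The summed level of the 80 genes was 15535 and 15658 CPM in KO, 14471 and 14961 CPM in het, and 14621 and 14593 CPM in wt. In 35 of the 79 tested genes both KO libraries lay above both wt libraries (44.3%, against 33.2% of all genes), and in 27 both lay below (34.2%, against 34.5%). CPM are scaled by TMM factors, which set most genes to no change. With library size alone, where the median of all genes moved to a log2 fold change of 0.35, 48 splicing factor genes were higher and 7 were lower in KO than in wt. With library size taken without the Lars2, mitochondrial, 7SL and 7SK counts, the median of all genes was 0.04 and 22 splicing factor genes were higher and 13 lower. Changes are therefore relative to the bulk of the genes.

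**Figure D1:**
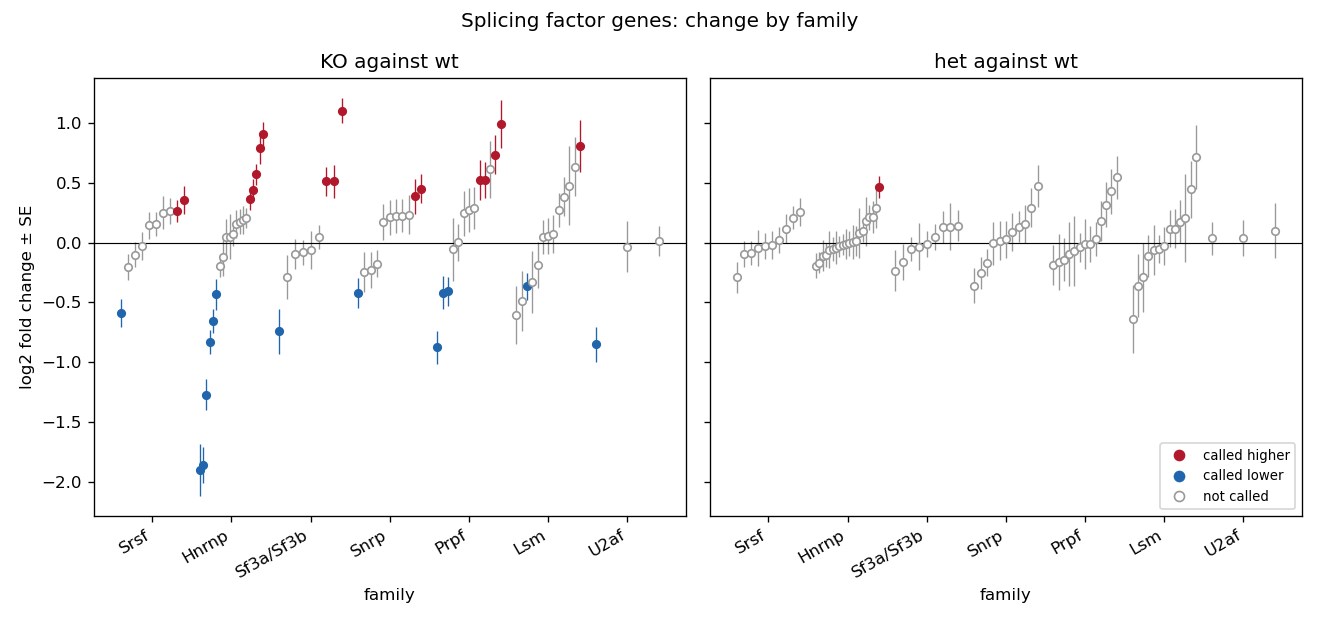
Log2 fold change (y axis, points, with bars of 1 standard error) of each tested splicing factor gene, sorted within its family (x axis), for KO against wt on the left and het against wt on the right; filled points passed an adjusted p under 0.05. In KO the Hnrnp genes spread from -1.90 to 0.91, while in het 1 gene, Hnrnpm, passed.

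**Figure D2:**
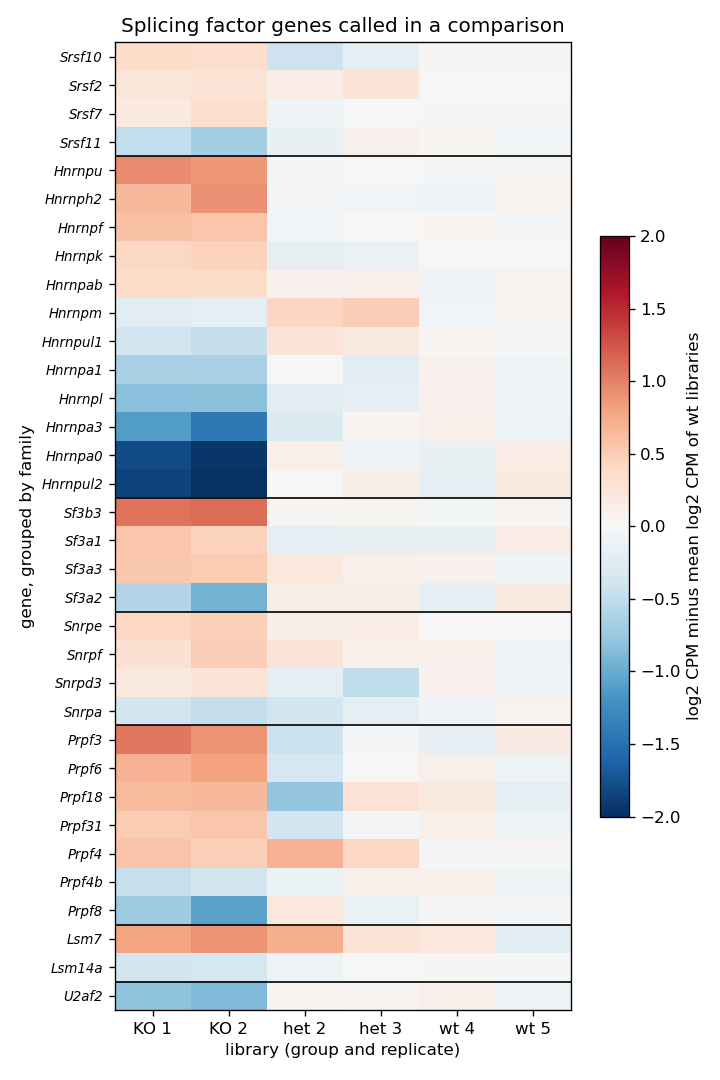
Log2 CPM minus the mean log2 CPM of the wt libraries (colour) for the splicing factor genes called in any comparison (rows, by family, without 1 gene not reported here) in each library (columns, KO, het, wt). Both KO libraries show the same colour in almost every row, and Hnrnpm is red in the het libraries.

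The hnRNP genes held the largest changes of any family. Of 20 tested, 5 were higher in KO than in wt (Hnrnpu, Hnrnph2, Hnrnpf, Hnrnpk and Hnrnpab). Another 6 were lower (Hnrnpul2, Hnrnpa0, Hnrnpa3, Hnrnpl, Hnrnpa1 and Hnrnpul1), with a family median of 0.06. The shares higher and lower were 25% and 30%, against 14.7% and 17.3% of all genes tested. Genes of the A group, whose proteins bind splicing silencers and also take part in mRNA transport and stability, were lower in 3 of 4 cases. Hnrnpa0 (chromosome 13, 58125879 to 58128556, minus strand, GRCm38) had 39.2 and 35.3 CPM in KO, 145 and 128 CPM in het, and 123 and 149 CPM in wt. It fell 3.62-fold in KO against wt (log2 fold change -1.86 ± 0.15, SE, adjusted p = 5.02e-09), and the KO libraries lay far below the other 4, which overlapped. Hnrnpa3 (chromosome 2, 75659261 to 75669407, plus strand) had 179 and 144 CPM in KO, 321 and 399 CPM in het, and 419 and 360.1 CPM in wt, a 2.41-fold fall in KO (-1.27 ± 0.13, adjusted p = 1.54e-06). Hnrnpa1, one of the most abundant hnRNPs and an antagonist of SRSF1 in splice site choice, had 389.6 and 391 CPM in KO, 615 and 530.5 CPM in het, and 648 and 578 CPM in wt, a 1.57-fold fall (adjusted p = 3.21e-05). Hnrnpa2b1, the remaining A-group gene, was at 1176 and 1216 CPM in KO and at 1052 and 1025 CPM in wt, and its log2 fold change of 0.20 ± 0.09 did not pass (adjusted p = 0.0742). The 4 A-group genes together summed to 1784 and 1787 CPM in KO, 2087 and 2104 CPM in het, and 2242 and 2113 CPM in wt.

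The 3 genes of the U group, whose proteins carry a SAP domain and a SPRY domain and bind nuclear RNA, moved in opposite directions. Hnrnpu (chromosome 1, 178321108 to 178337797, minus strand), which encodes a nuclear matrix protein also known as SAF-A, had 454 and 432 CPM in KO, 231 and 239 CPM in het, and 232 and 242 CPM in wt. It rose 1.87-fold in KO against wt (0.91 ± 0.10, adjusted p = 5.05e-07). Its het and wt libraries were nearly equal, and both KO libraries stood clear above them. Hnrnpul2 (chromosome 19, 8820010 to 8834143, plus strand) had 13.0 and 11.9 CPM in KO, 47.0 and 51.0 CPM in het, and 41.1 and 53.2 CPM in wt. Its 3.74-fold fall was the largest change of the 79 genes tested (-1.90 ± 0.22, adjusted p = 8.79e-07). Hnrnpul1 had 88.1 and 82.6 CPM in KO and 118 and 112 CPM in wt, with a smaller fall of 1.35-fold (adjusted p = 0.0126) that missed the threshold without KO replicate 2 (adjusted p = 0.103), without wt replicate 4 (0.172) or without wt replicate 5 (0.0505).

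Of the F and H group, which bind runs of G, 2 of 4 genes rose and none fell. Hnrnpf had 996 and 969 CPM in KO, 637 and 656 CPM in het, and 681 and 642 CPM in wt (1.49-fold higher in KO than in wt, adjusted p = 4.18e-05). Hnrnph2 had 175 and 209.5 CPM in KO, 108 and 108 CPM in het, and 106 and 117 CPM in wt (1.72-fold higher, adjusted p = 6.91e-05). Hnrnph1 and Hnrnph3 had log2 fold changes of 0.05 ± 0.15 and 0.05 ± 0.19. For both the KO and wt libraries overlapped. The pair therefore differed from Hnrnpf and Hnrnph2 in its measured change, although no test set the genes against each other.

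Hnrnpk, a poly(C)-binding hnRNP, had the highest mean level of the family, with 1521 and 1572 CPM in KO, 989 and 1035 CPM in het, and 1126 and 1150 CPM in wt, and it rose 1.36-fold in KO against wt (0.44 ± 0.08, adjusted p = 0.000368). Hnrnpl, which binds CA repeats, had 193 and 195 CPM in KO, 293 and 308 CPM in het, and 366 and 323 CPM in wt, a 1.78-fold fall (adjusted p = 2.59e-06). Its paralogue Hnrnpll was at 156 and 157 CPM in KO and at 129 and 147 CPM in wt, and did not pass (adjusted p = 0.24). Hnrnpab, a CArG-box and RNA-binding factor, rose 1.29-fold (adjusted p = 0.00344), but 29.1% of its exon bases lie within Phykpl on the opposite strand and the libraries do not mark strand. The expected counts of Hnrnpu, Hnrnpab and Hnrnpc were not whole in any of the 6 libraries and those of Hnrnpa3 in 5, which shows that some of their reads were divided with other genes.

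**Figure D3:**
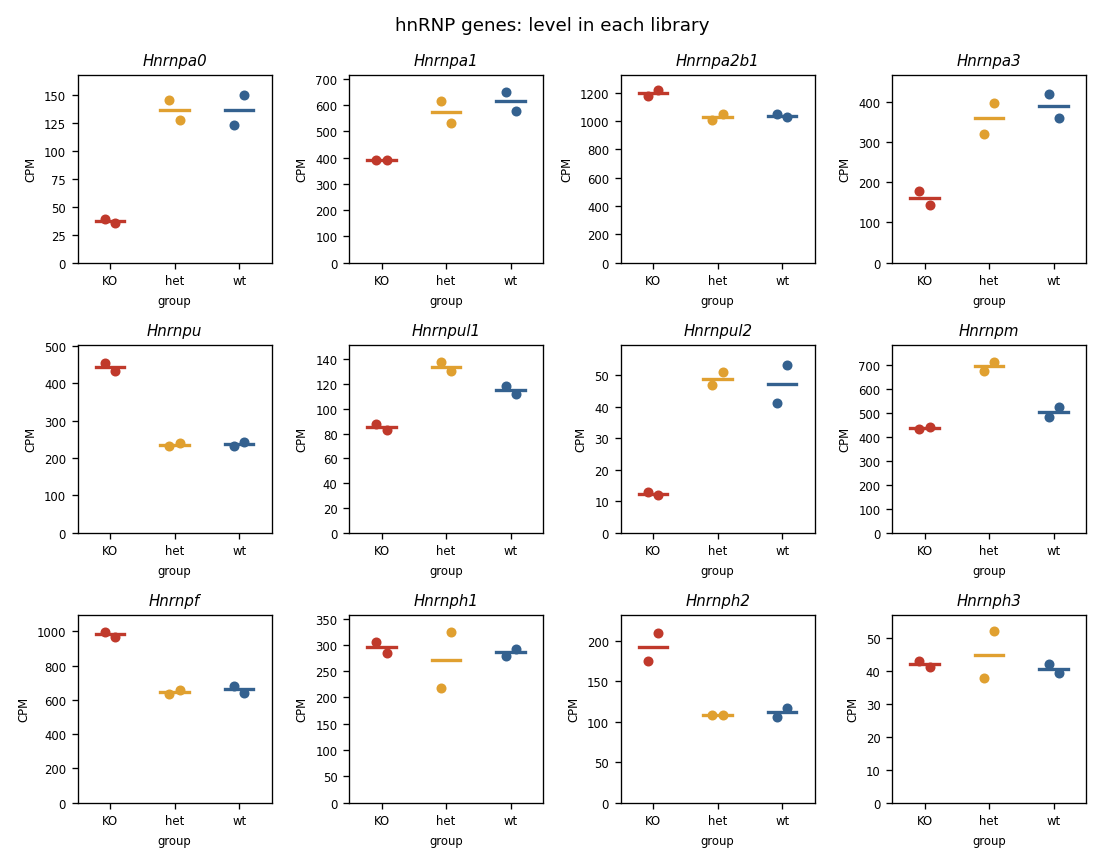
CPM (y axis, from 0) of 12 Hnrnp genes in each library (points, with the group mean as a line) of KO, het and wt. Hnrnpa0, Hnrnpa3 and Hnrnpul2 have both KO points below all other points, Hnrnpu, Hnrnpf and Hnrnph2 above them, and Hnrnpm has its highest points in het.

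At the branch point step, 3 of 9 SF3a and SF3b genes were higher in KO than in wt (33.3%) and 1 was lower (11.1%). Over all genes tested the shares were 14.7% and 17.3%. The U2AF large subunit gene was lower. Sf3b3 (chromosome 8, 110810239 to 110846787, minus strand), which encodes SF3B130, a scaffold protein of SF3b, had 363 and 371 CPM in KO, 175 and 177 CPM in het, and 169 and 173 CPM in wt. It rose 2.15-fold (1.10 ± 0.10, adjusted p = 5.36e-08), the largest rise of the 79 genes tested. The other 5 SF3b genes were not called, with log2 fold changes between -0.29 and 0.04. Sf3b1, which encodes the subunit that holds the branch point helix and had the highest mean CPM of the family, had 415 and 413 CPM in KO, 361 and 411 CPM in het, and 418 and 384 CPM in wt (0.04 ± 0.10, adjusted p = 0.771). Per kilobase of exon, Sf3b3 was at 33.2 and 34.0 CPM per kb in KO, where it overlapped Sf3b2 and lay 4th of the 6 SF3b genes, against 15.4 and 15.9 CPM per kb in wt, where it was the lowest of the 6.

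All 3 SF3a genes were called. Sf3a3 had 155 and 152 CPM in KO, 124 and 115 CPM in het, and 113 and 101 CPM in wt (1.42-fold higher in KO than in wt, adjusted p = 0.00315). Sf3a1 had 131 and 123 CPM in KO, 78.3 and 80.6 CPM in het, and 80.9 and 98.7 CPM in wt (1.43-fold higher, adjusted p = 0.00666). Sf3a2, the third subunit, went the other way, with 37.7 and 29.2 CPM in KO, 61.2 and 61.8 CPM in het, and 49.7 and 63.9 CPM in wt (1.67-fold lower, adjusted p = 0.00419). Each of these calls was lost without some single library: Sf3a3 without wt replicate 5 (adjusted p = 0.0534), Sf3a1 without KO replicate 1 (0.0523) or wt replicate 4 (0.121), and Sf3a2 without KO replicate 2 (0.0567) or wt replicate 5 (0.103). Sf3a2 shares 16.1% of its exon bases with Plekhj1 on the opposite strand.

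U2af2 (chromosome 7, 5062143 to 5079938, plus strand) encodes U2AF65, which binds the polypyrimidine tract. It had 54.7 and 51.6 CPM in KO, 98.3 and 98.8 CPM in het, and 102 and 88.6 CPM in wt, a 1.80-fold fall in KO against wt (-0.85 ± 0.14, adjusted p = 0.000107). U2af1, which encodes its partner that reads the AG at the 3′ splice site, had 132 and 128 CPM in KO, 139 and 127 CPM in het, and 141 and 116 CPM in wt, with all groups overlapping (0.01 ± 0.13, adjusted p = 0.961). U2af1l4 had 32.1 and 37.8 CPM in KO, 29.2 and 44.7 CPM in het, and 36.0 and 35.4 CPM in wt (adjusted p = 0.92), and 65.6% of its exon bases are shared with another gene on the same strand.

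The 5 Prpf genes of the tri-snRNP were all called in KO against wt in the main fit, 4 higher and 1 lower. Of all genes tested, 32% were called. Prpf3 (chromosome 3, 95830124 to 95855885, minus strand), a U4/U6 protein, had 59.9 and 53.4 CPM in KO, 21.4 and 28.3 CPM in het, and 25.7 and 32.3 CPM in wt, and rose 1.98-fold (0.99 ± 0.20, adjusted p = 0.000689). Prpf6, which bridges U5 and U4/U6, had 83.9 and 91.1 CPM in KO, 41.3 and 52.0 CPM in het, and 55.7 and 48.7 CPM in wt (1.66-fold higher, adjusted p = 0.00143). Prpf31, which stabilises the U4/U6.U5 particle, had 96.8 and 100.1 CPM in KO, 52.0 and 66.0 CPM in het, and 72.8 and 63.3 CPM in wt (1.44-fold higher, adjusted p = 0.0113). Prpf4, the partner of PRPF3 on U4/U6, had 64.8 and 60.7 CPM in KO, 71.2 and 58.3 CPM in het, and 43.2 and 44.3 CPM in wt (1.44-fold higher, adjusted p = 0.0212). Unlike those of the other 4 genes, the het libraries of Prpf4 spanned the range of the KO libraries.

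Prpf8 (chromosome 11, 75486816 to 75509449, plus strand) encodes the large U5 protein at the core of the catalytic spliceosome. It had 122 and 94.5 CPM in KO, 231 and 181 CPM in het, and 202 and 197 CPM in wt, a 1.83-fold fall (-0.88 ± 0.14, adjusted p = 8.84e-05). The level of the 5 genes together was 428 and 400 CPM in KO, 417 and 385 CPM in het, and 399 and 385 CPM in wt. Per kilobase of exon, Prpf8 was the highest of the 5 in wt, at 27.0 and 26.4 CPM per kb, and the third in KO, at 16.4 and 12.7 CPM per kb. The call of Prpf31 was lost without KO replicate 2 (adjusted p = 0.058) or wt replicate 5 (0.123), and that of Prpf4 without KO replicate 1, wt replicate 4 or wt replicate 5 (0.0878 to 0.121). With libraries thinned to 1537894 counts, Prpf31 (adjusted p = 0.0648) and Prpf4 (0.0635) did not pass. Prpf4 did not pass with DESeq2 either (adjusted p = 0.0932). Of the other 8 Prpf genes, 2 were lower in KO than in wt. Prpf4b, a kinase, had 76.6 and 81.8 CPM in KO and 113 and 97.5 CPM in wt (adjusted p = 0.0265). This call was lost without KO replicate 1, KO replicate 2 or wt replicate 4 (adjusted p = 0.0701 to 0.374).

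**Figure D4:**
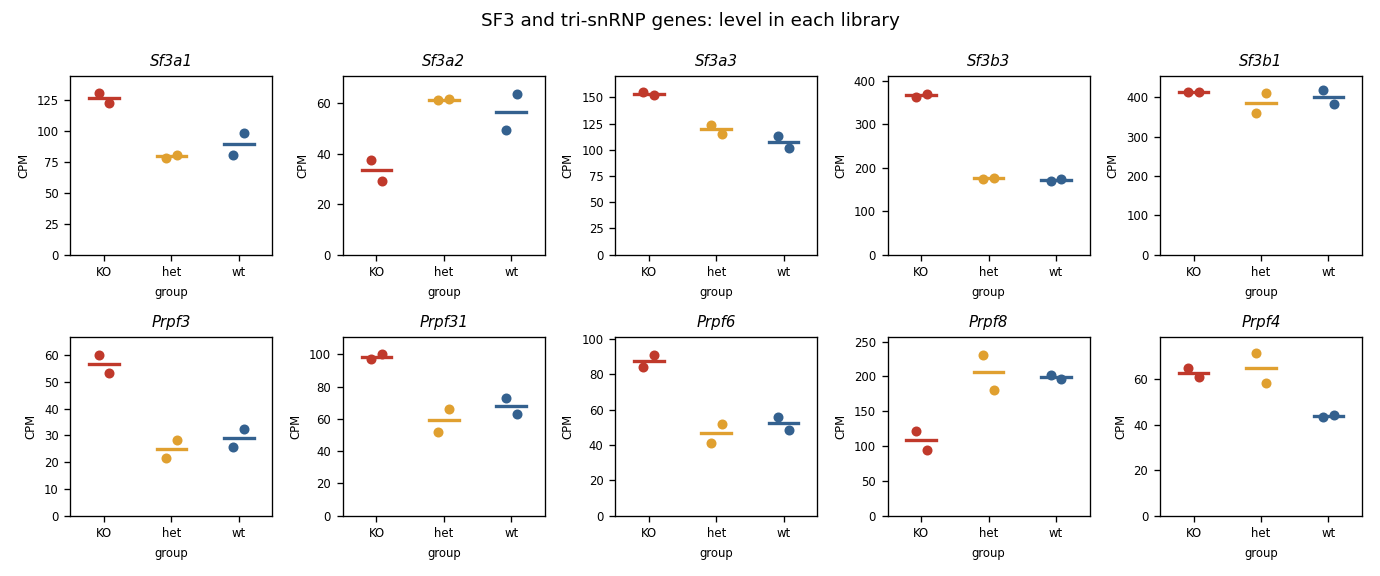
CPM (y axis, from 0) of 10 SF3a, SF3b and tri-snRNP Prpf genes in each library (points, with the group mean as a line) of KO, het and wt. Sf3b3, Prpf3 and Prpf6 have both KO points above all others and Prpf8 and Sf3a2 below them, while the points of Sf3b1 overlap.

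Few genes of the RNA-binding rings were called in KO against wt, and the median log2 fold change of each ring was positive. Of the 7 Sm ring genes, 2 were higher in KO than in wt and none was lower, against 14.7% and 17.3% of all genes tested. The median log2 fold change of the ring was 0.23. Snrpe had 148 and 154 CPM in KO, 120.4 and 122 CPM in het, and 111 and 111 CPM in wt (1.36-fold higher in KO than in wt, 0.45 ± 0.12, adjusted p = 0.0066). Snrpf had 90.9 and 103 CPM in KO, 87.6 and 78.9 CPM in het, and 79.2 and 68.3 CPM in wt (1.31-fold higher, adjusted p = 0.0483). The call of Snrpf was lost without any single KO or wt library (adjusted p = 0.0511 to 0.282), and 65.9% of its exon bases overlap Ccdc38 on the opposite strand; that of Snrpe was lost without KO replicate 2 (0.0521). Snrpb, which encodes SmB and had the highest mean CPM of the family, had 341 and 359.6 CPM in KO, 397 and 311 CPM in het, and 381 and 411 CPM in wt (-0.18 ± 0.11, adjusted p = 0.239).

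Per kilobase of exon, the Sm ring genes had the same order of means in KO and in wt, from Snrpb (172 and 182 CPM per kb in KO, 193 and 208 in wt) through Snrpf, Snrpe, Snrpg, Snrpd1 and Snrpd3 to Snrpd2 (29.1 and 29.2 in KO, 24.4 and 27.6 in wt). The neighbours Snrpf and Snrpe, and Snrpg and Snrpd1, overlapped between libraries in both groups. In het, Snrpd2 (34.3 and 29.6 CPM per kb) lay above Snrpd3 (29.4 and 23.4), and the rest of the order was the same. Proteins of the ring are present in equal numbers, whereas these levels per kilobase of annotated exon spanned a wide range. The order may depend on the annotated exon lengths and on the overlap of Snrpf with Ccdc38. Expected counts of Snrpg were not whole in any of the 6 libraries. Of the 4 proteins specific to U1 or U2, Snrpa, which encodes an RNA-binding protein of U1 snRNP, was lower in KO, with 112 and 104 CPM in KO, 113 and 128 CPM in het, and 137 and 153 CPM in wt (1.34-fold lower than in wt, adjusted p = 0.0144). This call was lost without KO replicate 2, wt replicate 4 or wt replicate 5 (adjusted p = 0.067 to 0.153). Snrpa1, Snrpb2 and Snrpc were not called.

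The 7 genes of the U6 ring, Lsm2 to Lsm8, all had positive log2 fold changes in KO against wt, from 0.05 to 0.81, and 1 passed. Lsm7 had 43.1 and 46.1 CPM in KO, 41.3 and 30.0 CPM in het, and 28.7 and 21.5 CPM in wt (1.75-fold higher in KO than in wt, 0.81 ± 0.22, adjusted p = 0.00645), a call lost without wt replicate 5 (adjusted p = 0.0989). Lsm5 had 32.3 and 27.0 CPM in KO, 39.2 and 25.8 CPM in het, and 19.3 and 19.0 CPM in wt and did not pass (0.63 ± 0.25, adjusted p = 0.0574). Its het libraries spanned the KO range, and both het and KO libraries lay above wt. Summed over the ring, the level was 455 and 459 CPM in KO, 417 and 425 CPM in het, and 396 and 378 CPM in wt. Outside the ring, Lsm14a, which encodes a P-body protein and had the highest mean CPM of the Lsm genes, had 126 and 128 CPM in KO, 152 and 162 CPM in het, and 166 and 161 CPM in wt (1.29-fold lower in KO than in wt, adjusted p = 0.0183). This call was lost without any single KO or wt library (adjusted p = 0.0761 to 0.183).

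**Figure D5:**
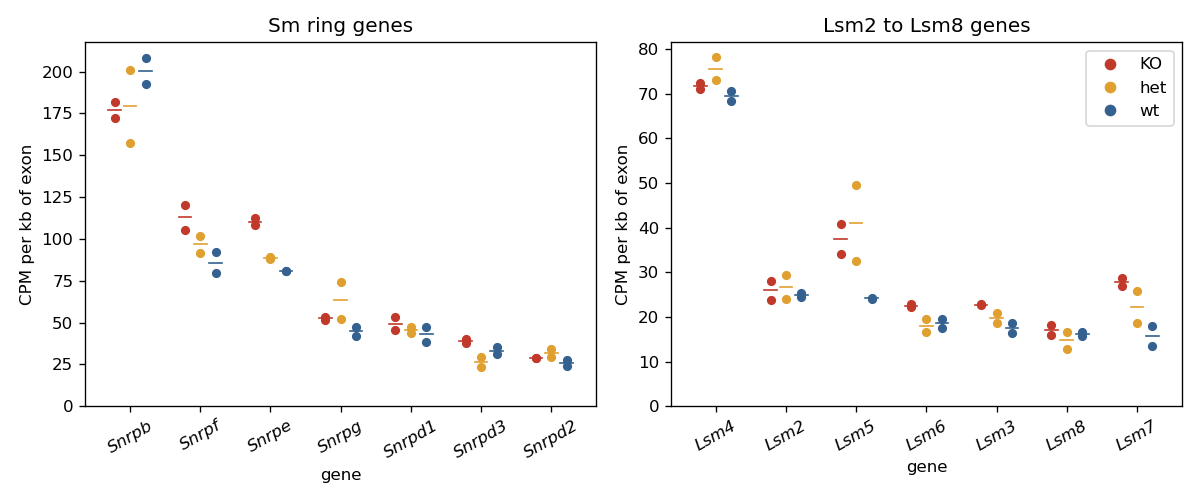
Level in CPM per kilobase of exon (y axis, from 0) of the Sm ring genes on the left and of Lsm2 to Lsm8 on the right in each library (points, with the group mean as a line) of KO, het and wt. Snrpb and Lsm4 stand highest in their rings in every group, and the KO points of Lsm7 and Snrpe lie above those of wt.

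SR protein genes changed modestly in size. Of 10 tested, 2 were higher in KO than in wt (20%) and 1 was lower (10%), against 14.7% and 17.3% of all genes tested. Log2 fold changes lay between -0.59 and 0.36. Srsf11, an SR-related protein, had 182 and 158 CPM in KO, 230.0 and 272 CPM in het, and 266 and 246 CPM in wt. This was a 1.50-fold fall (-0.59 ± 0.11, adjusted p = 0.000424). With library size alone Srsf11 did not pass against wt (-0.23, adjusted p = 0.119) or against het (-0.19, 0.188). Srsf10, which can act as a splicing repressor when dephosphorylated, had 183 and 181 CPM in KO, 107 and 124 CPM in het, and 144 and 139.8 CPM in wt (1.28-fold higher in KO than in wt, adjusted p = 0.0235). Srsf2, which encodes SC35, had 537 and 548 CPM in KO, 499 and 543 CPM in het, and 447 and 457 CPM in wt (1.20-fold higher, adjusted p = 0.0333). It shares 15.6% of its exon bases with Mettl23 and 9.7% with Mfsd11, both on the opposite strand. Expected counts of Srsf2 were not whole in 5 libraries. Its call was lost with DESeq2 (adjusted p = 0.0533), with a GC trend removed (0.0589) and after thinning (0.0785). That of Srsf10 was lost with DESeq2 (0.0767). The calls of Srsf10 and Srsf2 were lost without any single KO or wt library, with adjusted p from 0.0773 to 0.126 for Srsf10 and from 0.0986 to 0.154 for Srsf2.

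Srsf3, the smallest SR protein and the Srsf gene with the highest mean CPM, had 562 and 586 CPM in KO, 442 and 527 CPM in het, and 530.0 and 501 CPM in wt (0.15 ± 0.10, adjusted p = 0.254). Per kilobase of exon, Srsf2 was the highest of the 10 genes in every group, at 182 and 185 CPM per kb in KO, 169 and 184 in het, and 151 and 154 in wt. Srsf12 did not pass the filter on low counts, with expected counts of 0 and 5 in KO, 2 and 0 in het, and 0 and 0 in wt. No fold is given for it.

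Splicing genes outside the 7 families moved in both directions as well. Over all genes tested, 14.7% were higher and 17.3% were lower, and no list was tested as a group. Of 17 other snRNP proteins, 4 were higher in KO than in wt and 1 was lower. Eftud2, the U5 GTPase that binds PRPF8, had 243.6 and 233.9 CPM in KO, 116.8 and 120.4 CPM in het, and 119.0 and 108.2 CPM in wt (2.10-fold higher in KO than in wt, adjusted p = 4.87e-07). Sart3, which helps to recycle U4 and U6, had 71.6 and 85.2 CPM in KO, 40.6 and 42.2 CPM in het, and 46.7 and 37.3 CPM in wt (1.84-fold higher, adjusted p = 0.000492). Eftud2 and Prpf8, whose proteins sit together in U5, thus went in opposite directions. Of 15 genes of snRNP assembly, 4 were higher and 1 was lower. Ddx20 (Gemin3) of the SMN complex had 45.1 and 41.1 CPM in KO and 22.3 and 23.4 CPM in wt (adjusted p = 0.00188), and Prmt5, which methylates Sm proteins, had 121 and 135 CPM in KO and 83.9 and 96.8 CPM in wt (adjusted p = 0.00612; lost without KO replicate 2, 0.0687, or wt replicate 4, 0.0938).

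Of 9 spliceosomal helicases, 4 were higher in KO than in wt (Dhx8, Dhx16, Dhx38 and Ddx42) and 3 were lower (Ddx5, Ddx17 and Ddx46). Ddx5, a DEAD-box helicase that acts in splicing and transcription, had 515 and 521 CPM in KO, 1149 and 1275 CPM in het, and 1395 and 1413 CPM in wt (2.71-fold lower in KO than in wt, adjusted p = 1.28e-10). Its paralogue Ddx17 had 55.9 and 70.1 CPM in KO, 151 and 199 CPM in het, and 166 and 204 CPM in wt (2.94-fold lower, adjusted p = 1.17e-06). Of 17 other SR and SR-related genes, 2 were higher and 8 were lower, with a median log2 fold change of -0.49. The shares over all genes tested were 14.7% higher and 17.3% lower. Luc7l3, a U1-associated protein, had 49.9 and 45.6 CPM in KO, 107 and 170.0 CPM in het, and 131 and 133 CPM in wt (2.76-fold lower, adjusted p = 1.06e-05), and Acin1 had 47.4 and 42.9 CPM in KO, 101 and 139 CPM in het, and 153 and 106 CPM in wt (2.89-fold lower, adjusted p = 1.37e-05).

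Among 23 other splicing regulators, 5 were higher in KO than in wt and 5 were lower. Tial1, which binds U-rich sequence near 5′ splice sites, had 26.5 and 20.4 CPM in KO, 58.4 and 79.9 CPM in het, and 86.5 and 72.1 CPM in wt (3.38-fold lower, adjusted p = 4.77e-07). Ewsr1, an RNA-binding protein of the FET family, had 497 and 453 CPM in KO, 289 and 329 CPM in het, and 272 and 257 CPM in wt (1.80-fold higher, adjusted p = 2.18e-06). Of 6 SR kinases, Clk3 was higher (adjusted p = 0.0168, lost without KO replicate 2, wt replicate 4 or wt replicate 5, 0.0654 to 0.157), and Srpk2 was lower, with 26.8 and 23.6 CPM in KO against 55.2 and 55.1 CPM in wt (adjusted p = 7.41e-05). Of 16 PRP19 and catalytic-step genes, 3 were higher and 1 was lower. Cwc22 was called higher (adjusted p = 0.0115) and Syf2 lower (0.0136), but Cwc22 was lost without KO replicate 1 (0.0567) or wt replicate 5 (0.16), and Syf2 without KO replicate 1 (0.161) or wt replicate 4 (0.369).

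The 250 bases before each start in the RefSeq promoter table (GRCm38.p6) were searched for CACGTG, the canonical E-box, which reads the same on both strands. A promoter was found for 68 of the 80 genes. The hexamer was in 7 of them (10.3%), against 1854 of 27025 genes in the table (6.86%). It was in 2 of the 17 genes higher in KO than in wt with a promoter, 2 of the 11 lower and 3 of the 39 not called. The windows of 30 bases around it are shown for genes of either direction, with the hexamer in capitals: Hnrnpa3 (lower, chr2:75659229-75659258, plus strand), Hnrnpf (higher, chr6:117907713-117907742, plus strand), Prpf3 (higher, chr3:95855856-95855885, minus strand) and Snrpa (lower, chr7:27195812-27195841, minus strand, 1 of 3 such windows at this gene).
Hnrnpa3: cggatagcacatCACGTGgtgactggcccc
Hnrnpf: cgagcgggcgctCACGTGgcccgaggcgcc
Prpf3: gccttccgtagtCACGTGccgtagggaccg
Snrpa: acgcctttcgcgCACGTGgactaatgggaa
The Prpf3 window lies within the gene by the gene position given above, because the RefSeq start searched here lies further downstream. The same hexamer was thus present at genes that were higher and at genes that were lower. A match is a description of these letters, not a bound site.

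With loss of 1 Dll4 copy few splicing factor genes were called, though with 2 libraries a group changes may pass undetected. Log2 fold changes of the 79 genes in het against wt ran from -0.64 to 0.71. In het against wt, 1 of 79 was called (1.27%), against 0.173% of all genes tested, or 19 of 10952. It was higher, as were 0.128% of all genes, and none was lower, against 0.0457%. With no adjustment, 10 had a p under 0.05 (12.7%, against 8.15% of all genes). DESeq2 called 1 higher and 0 lower, and limma-voom called 0 in either direction. The median log2 fold change was -0.01, against 0.01 over all genes. In 18 of the 79 genes both het libraries lay above both wt libraries (22.8%, against 19.2% of all genes), and in 11 both lay below (13.9%, against 18.8%). The 7 lists of other splicing genes held no call.

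The gene called was Hnrnpm (chromosome 17, 33646233 to 33686860, minus strand), which encodes an hnRNP that regulates alternative exons, CD44 among them. It had 434 and 441 CPM in KO, 674 and 709.8 CPM in het, and 482 and 524 CPM in wt. Both het libraries stood above all 4 others, and the 2 KO libraries below them. It was higher in het than in wt (1.38-fold, 0.46 ± 0.09, adjusted p = 0.042) and lower in KO than in het (1.58-fold, -0.66 ± 0.09, adjusted p = 1.19e-05), and KO did not pass against wt (-0.20 ± 0.09, adjusted p = 0.105). The het call was lost without any single library (adjusted p = 0.0599 to 0.783). Part of the exon bases of Hnrnpm, 14.7%, overlap another gene on the same strand.

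The other 4 genes with the lowest unadjusted p in het against wt were not called after adjustment. Prpf4 had a log2 fold change of 0.55 ± 0.18 (adjusted p = 0.347) and Lsm5 of 0.71 ± 0.27 (adjusted p = 0.436). Snrpg had 84.2 and 80.6 CPM in KO, 117 and 82.0 CPM in het, and 66.4 and 74.7 CPM in wt (0.47 ± 0.17 in het against wt, adjusted p = 0.41). Snrpd3 had 131 and 138 CPM in KO, 101 and 80.6 CPM in het, and 121 and 108 CPM in wt (-0.36 ± 0.15, adjusted p = 0.504). The het libraries of Snrpg and Snrpd3 differ more from each other than the KO or wt libraries do.

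KO against het shares its KO libraries with KO against wt, so the comparisons are not independent. In KO against het 30 of 79 genes were called (38.0%, against 31.2% of all genes), 16 higher (13.9% of all genes) and 14 lower (17.2% of all genes), with a median of -0.02. In 29 genes both KO libraries lay above both het libraries (36.7%, against 31.4% of all genes), and in 21 both lay below (26.6%, against 33% of all genes). Of the genes called in KO against wt, 13 were higher and 13 lower in KO against both other groups. Another 4 were higher against wt alone (Srsf2, Snrpf, Prpf4 and Lsm7), and Snrpa was lower against wt alone. Srsf7, Snrpd3 and Prpf18 were higher against het alone (adjusted p = 0.0384, 0.00243 and 0.0374), and Hnrnpm was lower against het. The call of Srsf7 was lost without any single KO or het library (adjusted p = 0.0561 to 0.233), that of Snrpd3 without het replicate 3 (0.0655), and that of Prpf18 without KO replicate 1 (0.111), KO replicate 2 (0.125), het replicate 2 (0.201) or wt replicate 5 (0.0523). Without het replicate 2 the log2 fold change of Prpf18 was 0.37, against 0.71 with it. Srsf7 and Prpf18 passed in KO against wt as well under some settings, such as a fit of the 2 groups only (adjusted p = 0.046 and 0.0105), so they are not shown to be particular to het. In 44 genes no comparison passed. The matching shares over all genes tested were not computed, so these counts across comparisons are no result about the splicing factor genes as a group.

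The genes with the largest changes against wt had similar values against het. The log2 fold change in KO against het was -1.98 ± 0.21 for Hnrnpul2 (adjusted p = 4.66e-07), -1.86 ± 0.15 for Hnrnpa0 (5.38e-09), -1.16 ± 0.13 for Hnrnpa3 (4.22e-06), 1.06 ± 0.10 for Sf3b3 (9.95e-08) and 0.91 ± 0.10 for Hnrnpu (4.8e-07). Among the tri-snRNP genes, Prpf3 was 1.15 ± 0.20 (adjusted p = 0.000167), Prpf6 0.88 ± 0.16 (0.000301), Prpf31 0.71 ± 0.15 (0.00126) and Prpf8 -0.91 ± 0.14 (6.36e-05). Prpf4 was at -0.02 ± 0.16 (adjusted p = 0.938). Other calls in KO against het were weaker. That of Lsm14a was lost without any single library (adjusted p = 0.0575 to 0.207), with DESeq2 (0.169) and under most other settings, and its log2 fold change turned to 0.0693 with library size alone. The calls of Hnrnpab (0.0619 to 0.112) and Snrpe (0.104 to 0.193) were lost without any single KO or het library, and that of Snrpe also without wt replicate 5 (0.0588). That of Sf3a3 was lost without KO replicate 1, KO replicate 2 or het replicate 3 (0.0864 to 0.142), and that of Prpf4b without any single library but het replicate 2 (0.0519 to 0.294).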

How the data were processed

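Per the labels' protocols, cDNA came from the SMART-Seq v4 kit and Nextera XT libraries, neither of which keeps strand. The labels differ on single or paired reads. The authors deposited 1 table of expected counts, in which a read that fits several genes is split among them. The submitters' processing notes name CASAVA, cutadapt and RSEM but no versions. Of the 80 genes, 21 had expected counts that were not whole in some library.

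Expected counts were rounded. Symbols and exon lengths came from GENCODE M21 (GRCm38), which matched 97.9% of identifiers. The fit was made with edgeR 4.0.16 (R 4.3.3), using TMM factors, filterByExpr (minimum count 10) and a robust quasi-likelihood fit of all 6 libraries, which left 3 residual degrees of freedom. Tests were two-sided. P-values were adjusted by Benjamini and Hochberg's method over 10952 genes, and 0.05 was the threshold for a call. Every adjusted p comes from this fit unless another setting is named. CPM use the TMM-scaled totals, and CPM per kb divide by the union of annotated exons. The procedure was tested on simulated counts, with 100 genes changed by 1 and 100 by 0.5 on the log2 scale. Across the comparisons it recovered 57 to 63 of the former and 13 to 17 of the latter. It also called 2 to 4 unchanged genes. Many changes of these sizes can therefore be missed. Lost calls refer to refits without 1 library.

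The genes and lists were chosen with earlier results of these data known. Given with values were the 3 genes per family with the lowest p in KO against wt, the 5 with the lowest p in the other comparisons, the gene with the highest mean CPM per family, called genes of at least 1 on the log2 scale, genes called in opposite directions, and 2 genes per list of other splicing genes. Hnrnpa1, Hnrnpa2b1, Hnrnpab, Hnrnpf, Hnrnph1, Hnrnph2, Hnrnph3, Hnrnpl, Hnrnpll, Hnrnpul1, Sf3a1, Prpf31, Prpf4b, Prpf18 and Srsf7 were added after their values were seen. Some genes are counted but not reported here by name. Alternatives were DESeq2 1.42.0, limma-voom (limma 3.58.1), other scalings and filters, thinning to 1537894 counts, removal of a GC trend, and leaving out each library.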

Additional observations from a re-analysis of the deposited data

How the results depend on the processing

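In KO against wt the count of splicing factor genes was 17 higher and 14 lower. With DESeq2 9 were lower. With library size alone 48 were higher and 7 lower in KO against wt, and 39 were higher and 7 lower in KO against het, where all genes shifted by 0.36. Library size without the Lars2, mitochondrial, 7SL and 7SK counts gave 22 higher and 13 lower in KO against wt, and 18 higher and 13 lower in KO against het. With library size alone, Snrpb (0.37), U2af1 (0.36) and Lsm14a (0.0693) changed sign in KO against het. Leaving out 1 library gave 11 to 20 higher and 9 to 14 lower in KO against wt, and 11 to 18 higher and 11 to 13 lower in KO against het. In KO against wt the count of lower genes was 9 without KO replicate 2 and 9 without wt replicate 4, and that of higher genes was 11 without wt replicate 5. The cause was not tested. The single call in het against wt, Hnrnpm, was lost with limma-voom (0 genes), library size alone (0), a fit of the 2 groups only (0) and in every fit without 1 library (0 to 0).

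The calls of Hnrnpa0, Hnrnpa1, Hnrnpa3, Hnrnpab, Hnrnpf, Hnrnph2, Hnrnpk, Hnrnpl, Hnrnpu, Hnrnpul2, Sf3b3, Prpf3, Prpf6, Prpf8 and U2af2 in KO against wt held under every alternative run. Of the 31 calls, 22 were shared with DESeq2, 30 with limma-voom and 25 after thinning. The call of Dll4 in het against wt was lost without wt replicate 4 (adjusted p = 0.0859). No paired analysis was possible because the labels do not pair libraries of different groups. A replicate number is not said to mark a pair. With 2 libraries a group, changes of the sizes called here may also pass undetected in other genes.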
